A study of Caenorhabditis elegans with 4 samples.

Results

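Chromosome III held 524 of the 2590 regions listed as bound by R02D3.7 in the combined peak list of the study, and 269 of 1251 and 189 of 810 in the lists of ChIP replicates 1 and 2. These peaks were chosen by chromosome alone, as every record of the combined list on III. R02D3.7, now named rcat-1, is called a transcription factor by the labels. It was followed as a GFP fusion in L4 hermaphrodites of Caenorhabditis elegans strain OP218, grown at 20 °C. The strain carries the unc-119(ed3) allele and the integrated transgene wgIs218, in which R02D3.7 is joined to TY1, EGFP and FLAG tags. The 4 libraries were 2 ChIP and 2 input libraries of this one strain, and no untagged strain was analysed here, so all of them share the allele and the transgene, which was introduced by bombardment and also brings an unc-119 rescue gene. Nothing in the labels ties the replicate numbers to separate cultures. The p-values and intervals given here treat peaks and windows as the units, so library-to-library spread is outside them.

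In chromatin immunoprecipitation followed by sequencing (ChIP-seq), DNA crosslinked to a protein is collected with an antibody, here against GFP, and a peak is a stretch where ChIP reads exceed a control. The autosomes of C. elegans have gene-rich centres with little recombination and repeat-rich arms with more of it. In this compact genome most factor-bound sites lie close to genes, and some regions are occupied by many unrelated factors. The endogenous unc-119 gene is on chromosome III. It was not placed on the coordinates used here, so no peak was assigned to it or to any other gene, and no sequence under a peak was read.

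Coordinates are on WormBase WS190. Strength below means -log10 q, where q is the authors' peak score, a p-value corrected for multiple testing. Depth is unknown, and deeper sequencing lowers q at the same binding. Counts and strengths therefore describe each list and do not measure a change in binding between lists. All 3 lists end just under a q-value of 0.01. The combined list rests on both ChIP libraries, so it is not independent of the replicate lists.

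The III peaks began with a group of 6 far stronger than the rest, and these were among the 11 strongest peaks of the whole genome. That limit of 11 was set by the sixth III peak. III held 12 of the 50 strongest peaks (24%) and 21 of the 100 strongest (21%), against 524 of all 2590. The strongest III peak spanned 2527861 to 2529801. Its q-value was 3.09e-215 in the combined calls, 1.25e-146 in replicate 1 and 4.05e-99 in replicate 2. It ranked 1 on III in all 3 lists and 5 in the genome. The peak at 5705154 to 5707313 followed, with a combined strength of 200.4, and 136.8 in replicate 1 and 78.4 in replicate 2. Its near neighbour at 5678550 to 5680672 had strengths of 196.5, 124.5 and 85.6 in the same order of lists. These 2 exchanged ranks 2 and 3 between the replicates.

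The remaining members of this group were spread over the chromosome. The peak at 8357066 to 8359041 had a combined strength of 189.5, with 123.2 in replicate 1 and 78.1 in replicate 2. The peak at 4752628 to 4755055, the widest on III at 2428 bp, had strengths of 184.3, 119.6 and 53.9. The peak at 12977481 to 12979387 had strengths of 163.6, 95.8 and 73.2. A wide step followed, since the seventh peak, at 10406747 to 10408094, had a combined strength of 96.1.

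The named set continued with 13 further peaks of combined strength 44.4 to 91.9. They lay at 7188756 to 7190372, 3403908 to 3405133, 9406078 to 9406922, 13255965 to 13257236, 86303 to 87788, 2400738 to 2401904 and 7020981 to 7022058, in falling order of strength. After them came peaks at 5855320 to 5856483, 7765570 to 7766667, 4203652 to 4204744, 8431514 to 8432783, 3866774 to 3867998 and 5498794 to 5499729. All 20 named peaks were stronger in replicate 1 than in replicate 2, as were 96 of the 120 III peaks found in both replicates (80%). This order was not counted on the other chromosomes, so it is not given as a trait of III. Of the 371 combined peaks of the genome with a q-value under 1e-10, 86 were on III (23.2%), against 524 of all 2590 combined peaks.

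The named peaks were found in the replicates at nearly the same place. Their partners ranked within the first 25 peaks of III in replicate 1 and the first 28 in replicate 2. The replicate 1 partner covered 67.7% to 100% of the combined peak (median 93.2%) and the replicate 2 partner 31.9% to 91.9% (median 56.9%). The combined peaks were 845 to 2428 bp wide, against 742 to 2274 bp for the replicate 1 partners and 474 to 1845 bp for the replicate 2 partners. Over all 120 peaks of III found in both replicates, Spearman's rho of replicate strengths was 0.77 and Pearson's r was 0.97, given as a description of peaks that share their libraries.

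**Figure D1:**
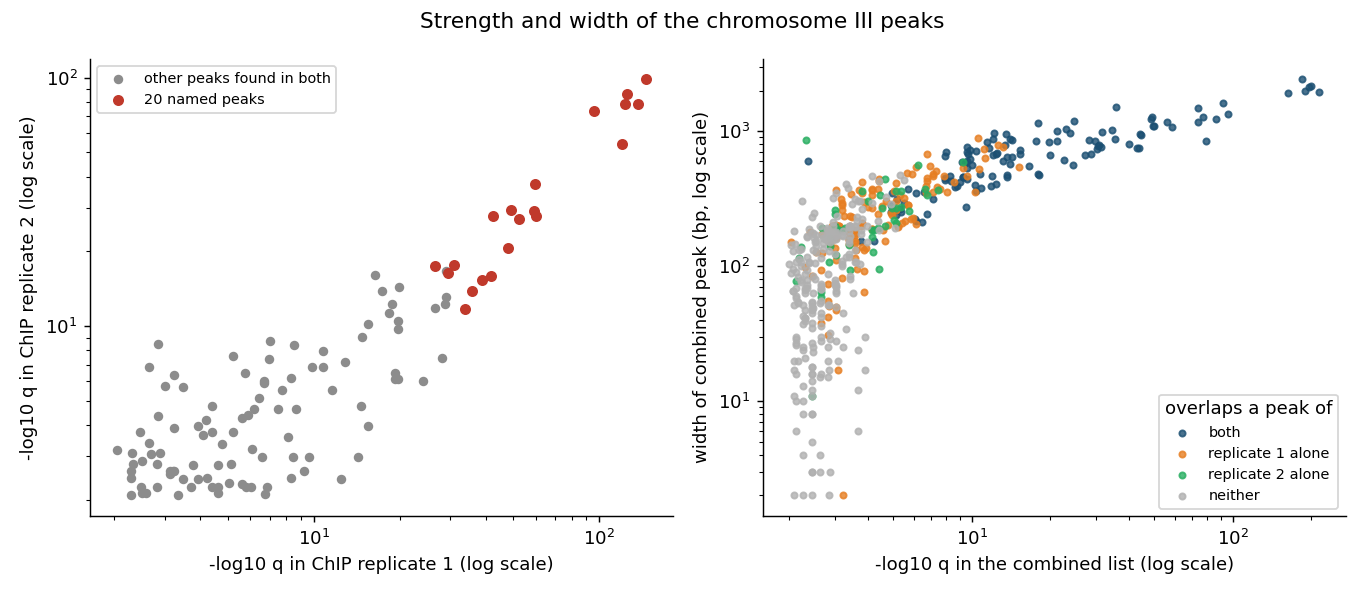
Left, -log10 q of the III peaks found in both replicates, in ChIP replicate 1 (x, log scale) and ChIP replicate 2 (y, log scale), each point a combined peak and the 20 named ones in red. Right, width in bp (log scale) of all 524 combined peaks against combined -log10 q (log scale), coloured by the replicates they overlap: the peaks of highest strength are wide and found in both, and the peaks found in neither lie at low strength.

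Peaks were dense in the middle of III, and at its left end the combined count was close to the genome rate. Chromosome III carried 38.1 combined peaks per Mb, against 20.1 (X) to 29.5 (I) per Mb on the other 5 chromosomes. In windows of 1 Mb counted from the left end, 8 of the 14 windows of III lay above the genome rate, compared with 4 of the 89 windows of the other chromosomes (two-sided exact binomial test, Benjamini-Hochberg adjustment over all 103 windows). Of all windows of the genome, 11.7% were called above, and III had none of the windows called below, which were 9.71% of all windows for combined peaks, 5.83% for replicate 1 peaks and 4.85% for replicate 2 peaks. Peaks lie in clusters, so these p-values are too small. With peaks closer than 2 kb merged into 1, 4 windows of III stayed above, windows 7, 8, 9 and 13.

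The densest window of III was window 8 (7000001 to 8000000), with 52 combined peaks, 32 replicate 1 peaks and 23 replicate 2 peaks. The combined count was 2.01 times the expected 25.9 (exact binomial test, adjusted p = 0.000108). Window 9 had 50 combined peaks (adjusted p = 0.000306 by the same exact test), and windows 7 and 10 had 45 each. Windows 4, 6, 11 and 13 had 41 or 42 each and also passed the test. A stretch from 3000001 to 11000000 thus held counts of 37 or more in each Mb, with window 5 (37 peaks, exact test, adjusted p = 0.136) the only one in it not called.

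A further dense window lay apart from this stretch, towards the right end. Window 13 (12000001 to 13000000) had 41 combined, 25 replicate 1 and 17 replicate 2 peaks, and it holds the peak at 12977481. Window 12, between the dense parts, had 28 combined, 9 replicate 1 and 5 replicate 2 peaks. Window 14, the last and shorter one of 0.763 Mb, had 29 combined peaks against an expected 19.8 (exact test, adjusted p = 0.145).

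The left 3 windows passed the test in none of the 3 lists. Windows 1, 2 and 3 had 27, 23 and 23 combined peaks against an expected 25.9. Window 2 (1000001 to 2000000) thinned out most in the single libraries, to 4 replicate 1 peaks against an expected 12.5 and 2 replicate 2 peaks against an expected 8.09 (exact test, adjusted p = 0.0599 and 0.132). Only 1 of its 23 combined peaks was found in both replicates and 19 were found in neither. The 6 windows of III not called above held 167 combined peaks in 5.76 Mb, or 29.0 per Mb. The 8 called windows held 357, or 68.1% of all III peaks.

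Both single libraries placed the high density in much the same windows. Each had 6 windows of III above the genome rate, against 7.77% of all windows for replicate 1 and 8.74% for replicate 2. Windows 4, 6, 7, 8 and 13 passed in all 3 lists, and outside III 1 window of the genome did so. The lists parted at windows 5 and 9. Window 5 passed in replicate 2 alone, with 20 peaks against 19 in replicate 1, and window 9 passed in replicate 1 and the combined list but had 13 replicate 2 peaks (exact test, adjusted p = 0.305). Windows 10 and 11 passed in the combined list alone. Across the 13 full windows, Spearman's rho was 0.81 between the replicates, a description over windows that share libraries with the combined list.

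**Figure D2:**
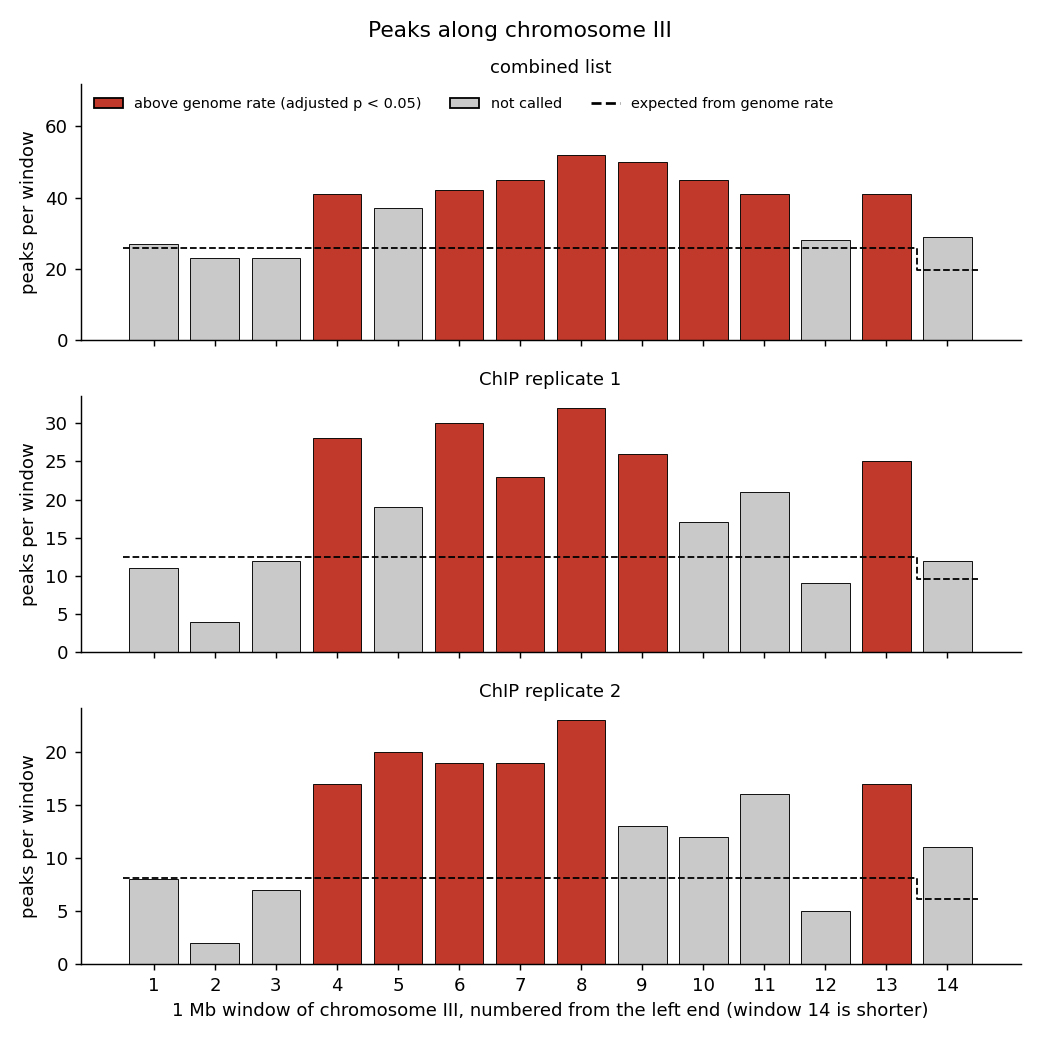
Peaks per 1 Mb window of chromosome III (x, window number from the left end; y, number of peaks) in the combined list and in each ChIP replicate. Red bars are above the genome rate in the exact binomial test, grey bars are not, and the dashed line is the count expected from the genome rate. Windows 4, 6, 7, 8 and 13 are red in all 3 lists.

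The excess on III was present in the centre of the chromosome and, among the outer parts, was greater at the right end than at the left. The central 50% of III held 313 combined peaks, 45.5 per Mb, compared with 26.6 per Mb in the central 50% of the other chromosomes. This was a ratio of 1.71 (exact 95% interval 1.50 to 1.94). The outer 25% at each end held 211 peaks, 30.7 per Mb, against 21.3 per Mb elsewhere, a ratio of 1.44 (1.24 to 1.68). In the single libraries the ratio was 1.98 and 2.07 for the central part, and 1.38 (1.09 to 1.73) and 1.66 (1.24 to 2.19) for the outer part. Taken apart and with no test, the right 25% of III had 36.0 combined, 17.1 replicate 1 and 12.5 replicate 2 peaks per Mb, against 21.5, 10.3 and 6.35 at the right ends elsewhere. The left 25% had 25.3, 10.2 and 6.39 per Mb, against 21.0, 9.55 and 5.05 at the left ends elsewhere. Within it, parts 1 and 2 of 10 equal parts of the span held 8.72 and 7.27 replicate 1 peaks per Mb, and 6.54 and 3.63 replicate 2 peaks per Mb.

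The central share of III exceeded that of the rest beyond counting error in replicate 1 alone. The central share was 59.7% of combined peaks on III and 55.6% elsewhere, a difference of 4.17 percentage points (Newcombe 95% interval -0.592 to 8.81). In replicate 1 it was 65.1% on III and 56.4% elsewhere (difference 8.64, interval 2.01 to 14.9), and in replicate 2 it was 65.6% and 60.4% (difference 5.22, interval -2.75 to 12.7). With the span cut into 10 equal parts, III was densest in part 6, at 56.7 peaks per Mb, and sparsest in part 2, at 21.8. The highest value of the other chromosomes was 39.4 peaks per Mb, on II in part 8.

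**Figure D3:**
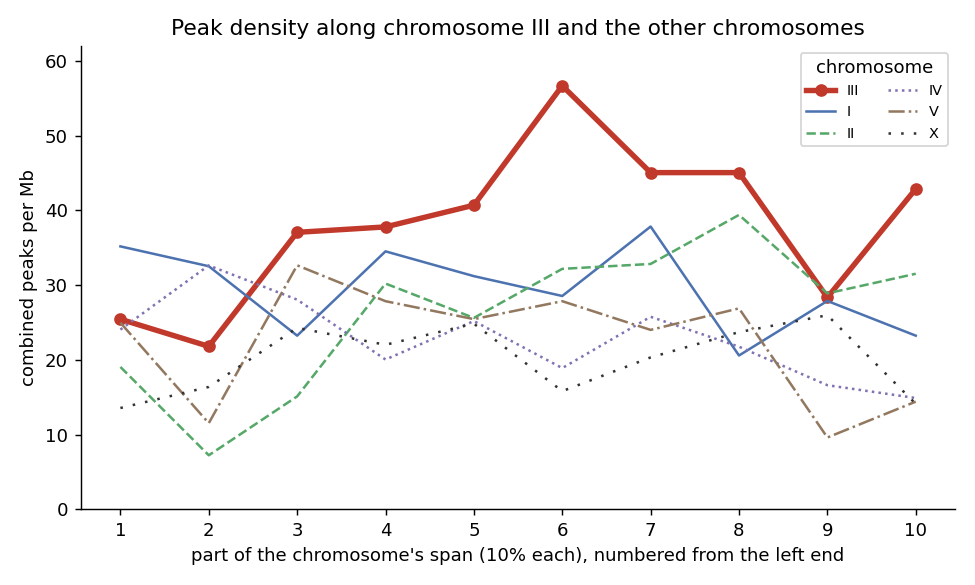
Combined peaks per Mb (y) in each of 10 equal parts of the span of a chromosome (x, numbered from the left end), for III (thick red line) and the other 5 chromosomes. III lies above all others in parts 3 to 8 and 10, with its maximum of 56.7 in part 6, and does not in parts 1, 2 and 9.

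The excess on III was found in each class of strength and support examined. Combined peaks with a q-value under 1e-10 numbered 86 on III, 1.69 times the number expected from its span (exact 95% interval 1.38 to 2.02), and the weaker ones stood at 1.44 times (1.32 to 1.56). Peaks found in both replicates were at 1.59 times (1.34 to 1.86), those found in 1 replicate at 1.59 (1.38 to 1.81) and those found in neither at 1.34 (1.19 to 1.51). All of these intervals lay above 1 and overlapped each other, and a difference between the classes was not tested. In the combined list an excess was not confined to III. Chromosome I held 1.14 times its expected number of combined peaks (exact 95% interval 1.04 to 1.24), against 1.47 times (1.36 to 1.59) on III. The single libraries gave no excess on I. It stood at 0.876 times (0.755 to 1.01) in replicate 1 and 0.738 times (0.600 to 0.895) in replicate 2, against 1.56 and 1.70 times on III. On I, peaks found in neither replicate stood at 1.47 times (1.32 to 1.63), those found in both at 0.944 and those found in 1 replicate at 0.756.

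The median strength on III was close to that of the other chromosomes. It was 3.43 on III and 3.44 elsewhere in the combined list. Of the III peaks, 16.4% had a q-value under 1e-10, against 13.8% elsewhere (difference 2.62 percentage points, Newcombe interval -0.695 to 6.31, with 14.3% over the whole list). In replicate 1 the shares were 17.5% and 17.1%, with 17.2% over the list, and in replicate 2 they were 16.9% and 17.7%, with 17.5% over the list. The strong peaks of III lay a median of 91.9 kb apart, from 0.930 kb to 981 kb, a spacing not compared with other chromosomes. In the central 50% of the chromosome were 50 of the 86 (58.1%), close to the 59.7% of all III combined peaks.

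Adjacent peaks on III stood closer together than elsewhere, a difference given as a description and not tested. The median gap between neighbouring combined peaks was 10.1 kb on III (quartiles 2.49 and 36.6 kb), against medians of 13.4 kb (I) to 31.0 kb (X) on the other chromosomes. In replicate 1 it was 23.7 kb on III and at least 39.7 kb elsewhere, and in replicate 2 it was 34.6 kb and at least 56.1 kb. A chromosome with more peaks per Mb has shorter gaps, and the median gap divided by the mean gap was 0.389 on III, the lowest of the 6 chromosomes, against 0.395 (V) to 0.641 (X) on the others. In the single libraries III lay within the range of the others, at 0.469 against 0.456 to 0.644 in replicate 1 and 0.481 against 0.426 to 0.632 in replicate 2. No gap in any III list was shorter than 205 bp.

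The share of very short gaps on III fell within the range of the other autosomes in the combined list. Of the 523 gaps of III, 117 were under 2 kb (22.4%), compared with 19.1% elsewhere, a difference of 3.30 percentage points (Newcombe interval -0.490 to 7.41). Over the whole list 19.7% of gaps were that short. The share was 11.5% on X, and among the other autosomes 18.3% (I) to 22.7% (IV). With a limit of 5 kb the difference was 9.70 percentage points (5.16 to 14.4). In replicate 1 at 2 kb the share was 17.5% on III against 11.9% elsewhere (difference 5.66, interval 1.03 to 11.01) and 13.1% over the whole list. There III lay above all others, at 5.77% (X) to 15.8% (IV), while in replicate 2 its 15.4% lay within their 6.73% (X) to 16.3% (IV). A chromosome with more peaks per Mb has more gaps under a fixed length.

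Runs of neighbouring peaks on III were mostly pairs, as they were elsewhere. With peaks less than 2 kb apart joined, 205 of the 524 peaks (39.1%) lay in runs, of which 66 were pairs and 22 held 3 or more peaks. The share in runs was 33.3% on the other chromosomes together, from 19.9% (X) to 40.2% (IV), and 34.4% over the whole list. The longest run of III had 5 peaks, against 4 to 9 on the others. It lay at 7178766 to 7184177, with 1 of its peaks found in both replicates and 3 in neither, and none stronger than 4.91. Runs of 4 peaks were taken in order of q-value, so the first of them hold strong peaks by choice. At 9404366 to 9408472, 4 peaks included the named one at 9406078 (strength 79.0). At 12816182 to 12821644, 4 peaks included one with a q-value of 2.25e-44. The run of 4 at 6967909 to 6972203 also held a strong peak (q = 7.05e-31). Those at 5502291 to 5506508 and 13719211 to 13724148 did not, with lowest q-values of 2.79e-06 and 0.000201. Neither of these held a peak found in both replicates.

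**Figure D4:**
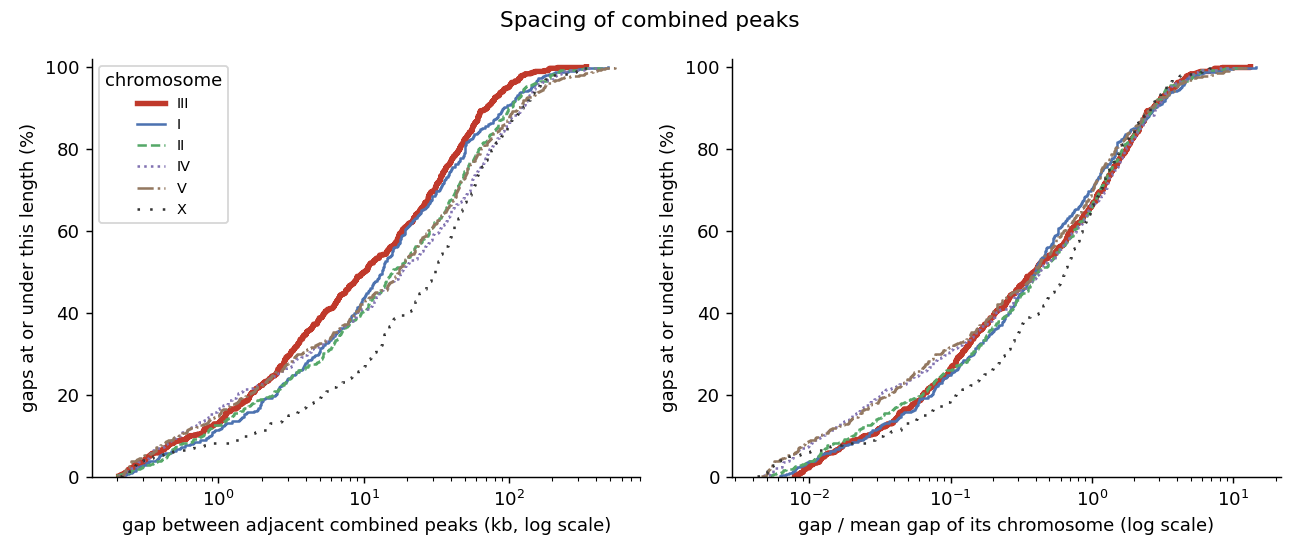
Cumulative share of gaps between adjacent combined peaks on each chromosome, by gap length in kb (left, log scale) and by gap length divided by the mean gap of the chromosome (right, log scale). At left, III (thick red line) reaches 50% at the shortest gap, 10.1 kb, and at right it reaches 50% at 0.389 of the mean gap, next to V at 0.395.

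Empty stretches were few and short in the combined list. The longest gap on III was 344 kb, between 9060338 and 9404366, inside the dense part, and the longest gaps of the other chromosomes were 363 to 544 kb. The next lay between 576614 and 793679 (217 kb), 1424647 and 1616786 (192 kb), 8450397 and 8639188 (189 kb), and 2172362 and 2359804 (187 kb). None of these 5 gaps held a replicate peak. Gaps over 100 kb made up 4.97% of the gaps of III, against 9.26% (I) to 14.1% (X) elsewhere. A chromosome with more peaks per Mb has fewer long gaps. In replicate 1 the longest gap of III was 532 kb, against 592 kb (X) to 1185 kb (IV) elsewhere. In replicate 2 it was 981 kb, within the 891 kb (I) to 1923 kb (V) of the others.

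The III peaks were of middling width in the combined list and among the narrower ones in the single libraries. The median width was 189 bp on III (quartiles 83.8 and 394 bp) and 200 bp elsewhere (98 and 391 bp), with medians of 166 bp (X) to 239 bp (I) on single chromosomes. In replicate 1 it was 200 bp on III and 262 bp elsewhere (199 bp on X to 389 bp on I), and in replicate 2 it was 200 bp on III and 246 bp elsewhere (200 bp on II to 364 bp on I). These medians were not tested. Together the III peaks covered 161 kb, or 1.17% of its span. Wider peaks were stronger, with a Spearman's rho of 0.85 across the 524 peaks, a description over peaks of the same libraries. On the other chromosomes rho was 0.80 (IV) to 0.84 (X). Peaks over 1 kb wide numbered 23 on III (4.39%), against 5.66% elsewhere (difference -1.27 percentage points, interval -3.08 to 1.03).

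Very narrow peaks were more frequent on III than on the other chromosomes pooled in the single libraries, though not in the combined list. Peaks under 50 bp made up 15.5% of III combined peaks and 16.2% elsewhere (difference -0.708 percentage points, Newcombe interval -4.00 to 2.97), with 16% over the whole list. In replicate 1 they made up 33 of 269 peaks on III (12.3%), against 7.33% elsewhere (difference 4.94, interval 1.09 to 9.63; 8.39% over the list). In replicate 2 they made up 20 of 189 (10.6%), against 6.12% elsewhere (difference 4.46, interval 0.237 to 9.91; 7.16% over the list). X, at 12.1% and 9.52%, was close to III in both libraries. V in replicate 1 (10.8%) and II in replicate 2 (8.51%) also lay within the Wilson interval of III. I was lowest, at 3.64% and 2.22%, and the difference without I was not computed in the single libraries.

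The support of III peaks by the replicates was near that of the other chromosomes. A combined peak counted as found in a replicate if it overlapped one of its peaks by at least 1 bp. Both replicates contained 120 of the 524 III peaks (22.9%), compared with 429 of 2066 elsewhere (20.8%), a difference of 2.14 percentage points (Newcombe interval -1.71 to 6.28), and 21.2% over the whole list. Another 128 were found in replicate 1 alone (24.4%, against 23.4% over the list) and 45 in replicate 2 alone (8.59%, against 7.18%). The remaining 231 were found in neither (44.1%), against 49.3% elsewhere and 48.3% over the list.

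This last difference, of -5.24 percentage points (interval -9.95 to -0.449), did not hold without chromosome I. On I, 62.2% of combined peaks were found in neither replicate. Without I it was -1.72 (interval -6.57 to 3.19). Within quartiles of combined strength and with I kept, it was -4.72 (-8.18 to -1.27).

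**Figure D5:**
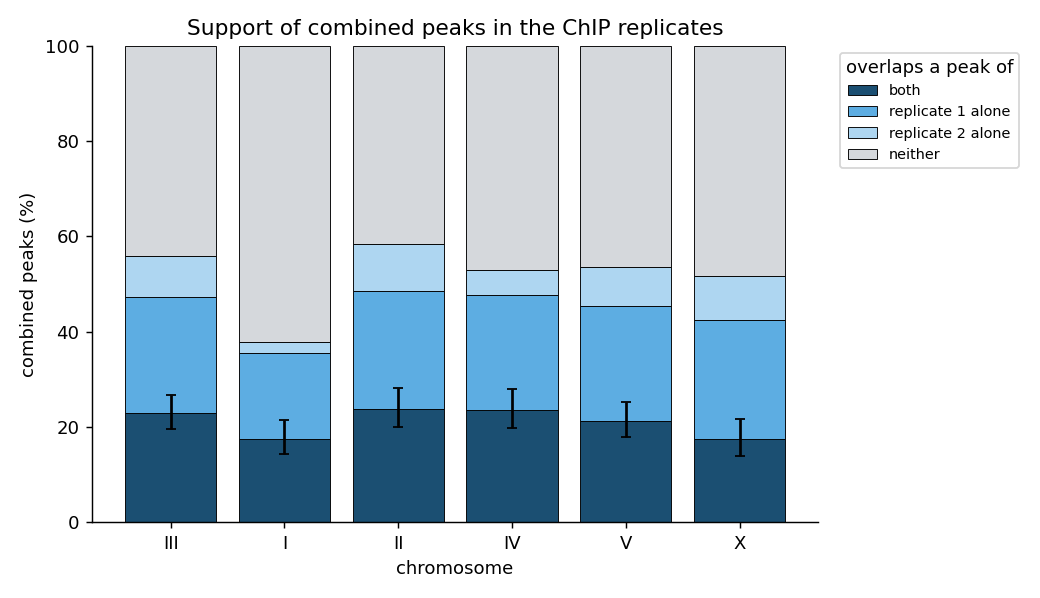
Share of combined peaks (y, %) that overlap a peak of both ChIP replicates, of replicate 1 alone, of replicate 2 alone or of neither, for III and the other 5 chromosomes. Error bars are Wilson 95% intervals of the share found in both, which is 22.9% on III and lies within the range of the other chromosomes.

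Support on III fell steeply with strength, as it did elsewhere. The 50 strongest combined peaks of III were all found in both replicates, as were 40 of ranks 51 to 100 (80%, Wilson interval 67.0 to 88.8) and 28 of ranks 101 to 200 (28%, interval 20.1 to 37.5). Beyond rank 200 only 2 peaks were. In the same strength ranges the other chromosomes gave 100% for ranks 1 to 25 and 97.5% for ranks 26 to 50. They gave 80.5% for the range of ranks 51 to 100 and 29.1% for that of ranks 101 to 200. For ranks 201 to 300, 301 to 400 and 401 to 524 they gave 1.54%, 0.257% and 0.423%. In ranks 201 to 400, III had fewer unsupported peaks than the rest at the same strength, which was not tested for these ranges. The rest includes chromosome I, where 62.2% of combined peaks were found in neither replicate, and the ranges were not compared without I. Of ranks 201 to 300, 48% were found in neither replicate, against 54.6% in that range elsewhere, and of ranks 301 to 400, 62% were, against 77.4%. Of the 124 weakest III peaks, 113 were found in neither replicate (91.1%), against 90.1% of peaks of the same strength elsewhere.

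The first III peak missing from a replicate was at 2926246 to 2926785, with rank 53 and a q-value of 6.06e-16. It was found in replicate 1 alone, as were the next such peaks, at 10506335, 3504817, 4494801 and 10357814 (strengths 13.1, 12.6, 11.2 and 11.1). The strongest III peak found in neither replicate lay at 3069127 to 3069563, with rank 150 and q = 3.16e-06. It was followed by peaks at 2359804, 8446342, 5200359 and 12906432, with strengths of 5.32, 5.10, 4.91 and 4.71. A region that narrowly missed the limit in 1 library is counted as missing there, which is no evidence that it was unbound.

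Support differed between the windows of III, which hold few peaks each, and these differences were not tested. Window 13 had the largest share of combined peaks found in both replicates, 14 of 41 (34.1%), followed by window 4 with 13 of 41 (31.7%). Windows 2, 12 and 10 had the smallest, with 1 of 23, 3 of 28 and 5 of 45. Window 10 was thus dense in the combined list while holding 1 peak with a q-value under 1e-10. In the central 50% of III, 39.9% of combined peaks were found in neither replicate, against 50.2% in the outer part, while the shares found in both were 23.3% and 22.3%. Over the whole list 48.3% were found in neither and 21.2% in both. The 2 parts were not tested against each other or compared with those of other chromosomes.

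A smaller share of replicate 2 peaks was found in replicate 1 on III than on the other chromosomes pooled, though III lay within their range. Of the 189 replicate 2 peaks of III, 116 overlapped a replicate 1 peak (61.4%, Wilson interval 54.3 to 68.0), against 70.2% elsewhere and 68.1% over the list. Single other chromosomes had 58.1% (X) to 88.9% (I). The difference was -8.83 percentage points (Newcombe interval -16.7 to -1.22). Without chromosome I it was -5.67 (-13.8 to 2.15), and among peaks with a q-value under 0.001 it was -5.57 (-15.4 to 2.53). In the other direction, 114 of the 269 replicate 1 peaks of III overlapped a replicate 2 peak (42.4%), against 43.1% elsewhere and 42.9% over the list (difference -0.696, interval -7.24 to 6.02).

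Some III regions of the single libraries had no combined peak. These were 15 of 269 replicate 1 peaks (5.58%), against 6.01% elsewhere and 5.92% over the list, and 17 of 189 replicate 2 peaks (8.99%), against 4.03% elsewhere and 5.19% over the list. The difference in replicate 2 was 4.97 percentage points (Newcombe interval 1.18 to 10.1). None of them was found in the other replicate. The strongest was a replicate 2 peak of 890 bp at 10224452 to 10225341 (q = 1.21e-07), which lay 5771 bp from the nearest combined peak. The others were weak, with q-values of 0.000542 or more in replicate 1, where the strongest lay at 7715325 to 7715415, and of 0.00367 or more in replicate 2.

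In 9 of the III peaks a replicate was stronger than the combined list, while in all others with a partner the combined list was the stronger. Replicate 1 was so in 7 of 248 peaks with a partner there, and replicate 2 in 4 of 165. The other chromosomes were not compared, so this is not given as a trait of III. The largest such departure was at 931224 to 931828, a peak of 605 bp chosen after its values were seen. It had a combined strength of 2.35, but 2.86 in replicate 1 and 8.49 in replicate 2, and its combined rank on III was 454. It was the weakest III peak found in both replicates. The other 8 exceeded the combined strength by less.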

How the data were processed

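The authors deposited 3 peak lists as GFF3 files, per the file headers on WormBase WS190 and, per the peak records, called with PeakSeq, 1 for each ChIP library and 1 combined. The only score the authors deposited is a q-value per peak. Aligner, filters, control and way of combining were not given in the sources used here. The input libraries gave no values used here. Depth is unknown, so precision was limited to counting error. Start and end were taken as 1-based and inclusive. The span of a chromosome was taken from base 1 up to the last base of its outermost peak (100.086 Mb in all), since no WS190 lengths were used.

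Peaks were assigned to windows by their midpoint. Counts per window and chromosome were tested with two-sided exact binomial tests against the share of the summed span (threshold 0.05, Benjamini-Hochberg adjustment over 103 windows or 6 chromosomes). Shares carry Wilson and their differences Newcombe 95% intervals. Density ratios, added after the data were seen, carry exact conditional binomial intervals. Peaks are not independent replicates and cluster, so p-values are too small and intervals too narrow. The quartile analysis used Mantel-Haenszel risk differences. Work used Python 3.11.15, scipy 1.17.1 and pandas 2.3.3, and the statistics were tested on simulated lists. Named peaks were the 20 strongest III peaks found in both replicates, the 5 strongest in 1 replicate, the 5 strongest in neither, the 5 widest, the 5 longest gaps, the 3 runs with the most peaks (equal runs ordered by q-value) and the 3 strongest replicate peaks per list without a combined peak, of which the text gives those that add information. The 5 widest are also the 5 strongest. The members, lists and tests were chosen with earlier results of these data known.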

Additional observations from a re-analysis of the deposited data

How the results depend on the processing

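Of 59 alternative values, 37 were labelled the same as the main value, and 16 of the 59 were chosen after the data were seen. Ratios and differences were labelled the same if they kept their direction and side of the threshold. Window counts were so labelled if within a set fold of the main count, whatever the number of windows. Medians had to lie within the standard deviation between the replicate lists, which was 0 for width, so any other median width counted as moved. The count on III was 1.34 to 1.70 times its expectation (1.56 and 1.70 in single lists) and the central and outer density ratios were 1.60 to 2.07 and 1.38 to 1.66. Windows above the genome rate numbered 4 with 2 Mb windows (of 7), 4 with nearby peaks merged, 5 with q-values under 0.001 and 6 in either list alone. The difference in peaks found in neither replicate no longer excluded 0 with 50% overlap (-4.39), with q-values under 0.001 (-4.36) or without I (-1.72), and that in shared replicate 2 peaks did not with q-values under 0.001 (-5.57) or without I (-5.67). The difference in shared replicate 1 peaks was 0.396 without I. That in gaps under 2 kb excluded 0 with q-values under 0.001 (4.64), in replicate 1 (5.66, against 4.55 in replicate 2) and with a 5 kb limit (9.70). That in narrow peaks turned positive among autosomes (0.487), with a 100 bp limit (2.74) and in single lists (4.46 to 4.94). The median width was 314.5 bp with q-values under 0.001 and 200 bp in single lists, and the median gap 20.7 kb and 23.7 to 34.6 kb; shorter lists have longer gaps. The cause of the other changes was not tested. No paired analysis was possible because values of ChIP libraries alone were used.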

Other observations

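At a finer scale, few stretches of III lacked peaks. Of its 137 full bins of 100 kb, 11 held no combined peak (8.03%), against 18.4% (II) to 29.3% (V) of bins on the other chromosomes, and 54 held 5 or more (39.4%), against 10.7% (X) to 23.3% (I). The fullest bin of III held 13 peaks, while single bins of I and V held 15 and 16. The variance of bin counts was 2.09 times their mean on III and 1.54 (X) to 2.67 (V) times elsewhere. In replicate 1, 25.5% of III bins were empty, against 33.6% (II) to 47.5% (X), and in replicate 2 37.2%, against 44.7% (II) to 62.7% (I). These values were not tested.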
